A study of Mus musculus with 15 samples.

Results

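S100a5 and S100b are genes of the S100 family of small calcium-binding proteins, and are 2 of the 9669 genes that have a probe of their own on the arrays of this study, with 1 probe each among 20205. Both were found through the platform annotation, as the probes whose single gene symbol is S100a5 or S100b. The pair was chosen from measured values: S100a5 was among the probes whose log ratio turned with the dye of the mutant RNA, so its values in that contrast are a description and no test of them is offered as a result, and those of S100b are treated in the same way. The study compared total RNA of brains of homozygous O377 mice, which carry an altered allele of the lens crystallin gene Crybb2, with RNA of wild-type (WT) mouse brains. The mutant channel held RNA of 5 brains and the other channel a pool of RNA of 4 wild-type brains, co-hybridised on 15 arrays. O377 RNA was labelled with Cy5 on 7 arrays (O377-Cy5 arrays) and with Cy3 on the 8 others (O377-Cy3 arrays). The labels give neither age, sex and strain of the mice nor the brain behind each array, and do not say whether the 5 mutant RNAs were pooled. P-values therefore cover only the variation among arrays, possibly all technical, and the wild-type pool is 1 control sample whose own spread is left out.

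S100 proteins bind calcium through a pair of EF-hand loops and mostly act as dimers that change shape with calcium and then bind other proteins. S100b is a classical protein of astrocytes, is also made by cells of the oligodendrocyte lineage, and can be secreted and bind the receptor encoded by Ager. S100a5 is a much more restricted gene, which in mice is best known from olfactory sensory neurons, where its expression follows odour-driven activity. In a sample of whole tissue, fewer cells of a type and less RNA per cell cannot be told apart.

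The values are log ratios of the 2 channels, taken as log2, and it is not stated which of mutant over wild type and Cy5 over Cy3 they are. Each probe was therefore described by a pair of quantities. The dye-switching component is the mean log ratio of the O377-Cy5 arrays minus that of the O377-Cy3 arrays, divided by 2. The shared component is the mean of those orientation means. If values run Cy5 over Cy3, the dye-switching component is the genotype difference, mutant over wild type. If values run mutant over wild type, the shared component is the genotype difference and the dye-switching component is a dye effect. The inverse ratios, Cy3 over Cy5 or wild type over mutant, would turn every sign. The arrays carried values for 38.8% to 52% of probes, with medians within 0.0165 of 0, and 8058 probes had at least 4 values in each orientation and entered the model.

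S100a5 had log ratios that lay on opposite sides of 0, or at it, in the 2 dye orientations. The S100a5 probe had values on 6 of 7 O377-Cy5 arrays, with a lowest log ratio of -0.01, a median of 0.59 and a highest of 1.16. It had values on 6 of 8 O377-Cy3 arrays, with a lowest log ratio of -2.75, a median of -0.88 and a highest of -0.41. Thus 5 of 6 values were above 0 on O377-Cy5 arrays and all 6 were below 0 on O377-Cy3 arrays, and the orientations did not overlap. Of all tested probes 0.906% had orientations that did not overlap, a figure from which nothing is read here because this contrast chose the gene. The value nearest 0 was that of array 1, and the value farthest from the rest was that of array 7, at -2.75, where the next lowest O377-Cy3 array had -1.33.

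The mean log ratio of S100a5 was 0.62 ± 0.43 (SD, n = 6) on O377-Cy5 arrays and -1.15 ± 0.85 (SD, n = 6) on O377-Cy3 arrays. Its dye-switching component was 0.88 ± 0.17 (SE), with a 95% interval from 0.51 to 1.26, and is larger in size than that of 99.8% of tested probes. The interval and the rank are descriptions only, since this contrast chose the gene. Read as Cy5 over Cy3, the component is a level 1.84-fold higher in O377 brains than in the wild-type pool. Read as mutant over wild type, it is a dye difference of the S100a5 probe. Without array 7 the component was 0.72, the lowest value with any single array left out, and without array 14 it was 0.96, the highest.

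S100b lay closer to 0 than S100a5, and its means lay on the other side in each orientation. The S100b probe had values on all 7 O377-Cy5 arrays, with a lowest log ratio of -0.34, a median of -0.23 and a highest of 0.39. It had values on 7 of 8 O377-Cy3 arrays, with a lowest of -0.15, a median of 0.24 and a highest of 0.43. The orientations overlapped. Of the O377-Cy5 arrays, 6 of 7 lay below 0 and array 13 alone lay above it. The O377-Cy3 arrays fell on both sides of 0, 4 above and 3 below, and arrays 3, 4 and 14 were the low ones.

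The mean log ratio of S100b was -0.16 ± 0.26 (SD, n = 7) on O377-Cy5 arrays and 0.14 ± 0.26 (SD, n = 7) on O377-Cy3 arrays. Its dye-switching component was -0.15 ± 0.07 (SE), with a 95% interval from -0.31 to 0.00297, which includes 0. In size this is a 1.11-fold difference, lower in O377 brains if values run Cy5 over Cy3, and larger than that of 77.5% of tested probes. Without array 13 the component was -0.20. On the 12 arrays where both genes had a value, S100a5 and S100b had opposite signs on 8 and the same sign on 4. Nothing is read from that count, since S100a5 was chosen for switching with the dye. Over these arrays their Pearson correlation was -0.629 as deposited and -0.356 with each orientation's mean subtracted.

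**Figure D1:**
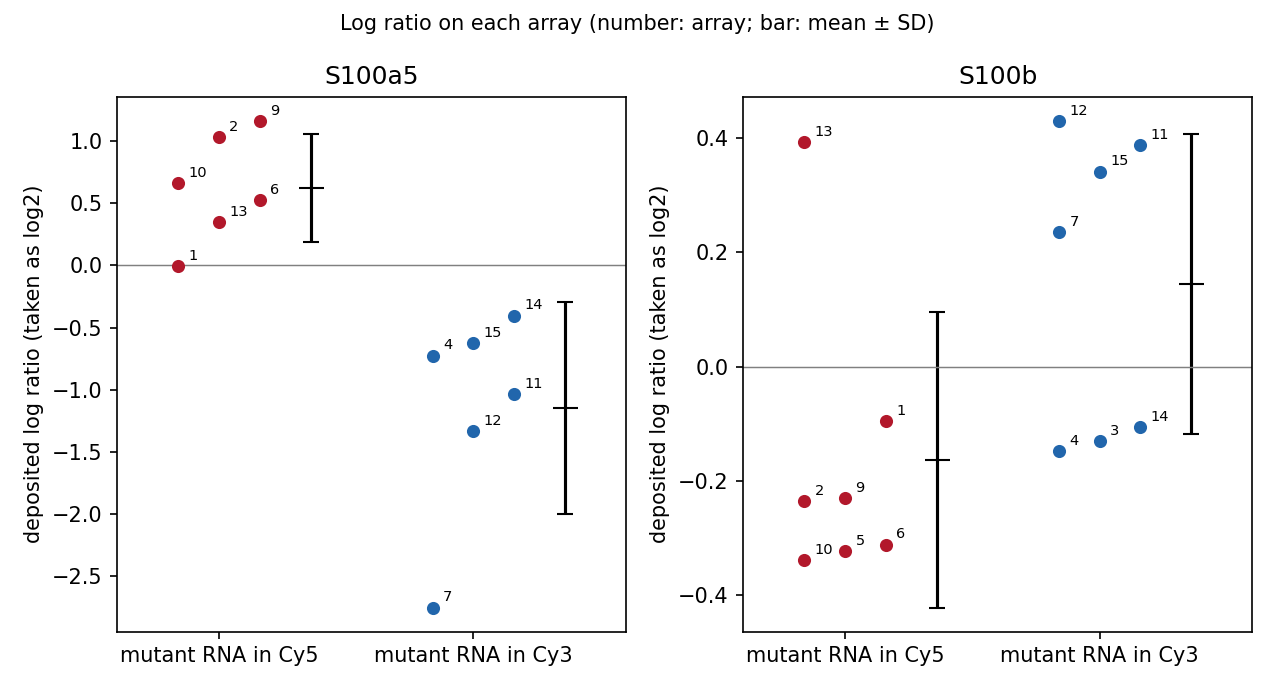
Deposited log ratios (vertical axis, taken as log2) of S100a5 (left) and S100b (right) on each O377-Cy5 and O377-Cy3 array; points are arrays with their numbers and bars are mean ± SD. S100a5 ran from -0.01 to 1.16 on O377-Cy5 arrays and from -2.75 to -0.41 on O377-Cy3 arrays, while the S100b values of the 2 orientations overlapped.

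The shared component, a contrast that did not choose the genes, was tested for both. The shared component of S100a5 was -0.26 ± 0.17 (SE), 95% interval -0.64 to 0.11, limma adjusted p = 0.634. That of S100b was -0.01 ± 0.07 (SE), interval -0.17 to 0.15, adjusted p = 0.976. Neither gene passed the threshold of 0.05. Without array 7 alone the shared component of S100a5 was -0.10, and that of S100b was -0.06 without array 13 and turned above 0 without any 1 of arrays 3, 4, 5, 6, 10 and 14, where the highest value was 0.02. If values run mutant over wild type, the interval of S100a5 covers ratios between O377 and wild-type brains on both sides of no difference, and that of S100b is the narrower one. No probe at all passed in the shared component (0% of 8058 by limma), with 765 at an unadjusted p under 0.05 and 107 passing with robust regression.

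The place of the genes among all probes measured on the same array does not depend on how widely an array's log ratios spread. For S100a5, between 49.4% and 97.8% of the probes of an array had a lower log ratio on O377-Cy5 arrays, with a median of 88.4%. On O377-Cy3 arrays these shares were between 1.34% and 17.5%, with a median of 4.6%. Array 1 was the exception among O377-Cy5 arrays, since the share was at least 83.6% on the other 5 with a value. For S100b the median shares were 29.2% on O377-Cy5 arrays and 80.6% on O377-Cy3 arrays, and the ranges, 17.5% to 87% and 31% to 90.9%, overlapped.

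**Figure D2:**
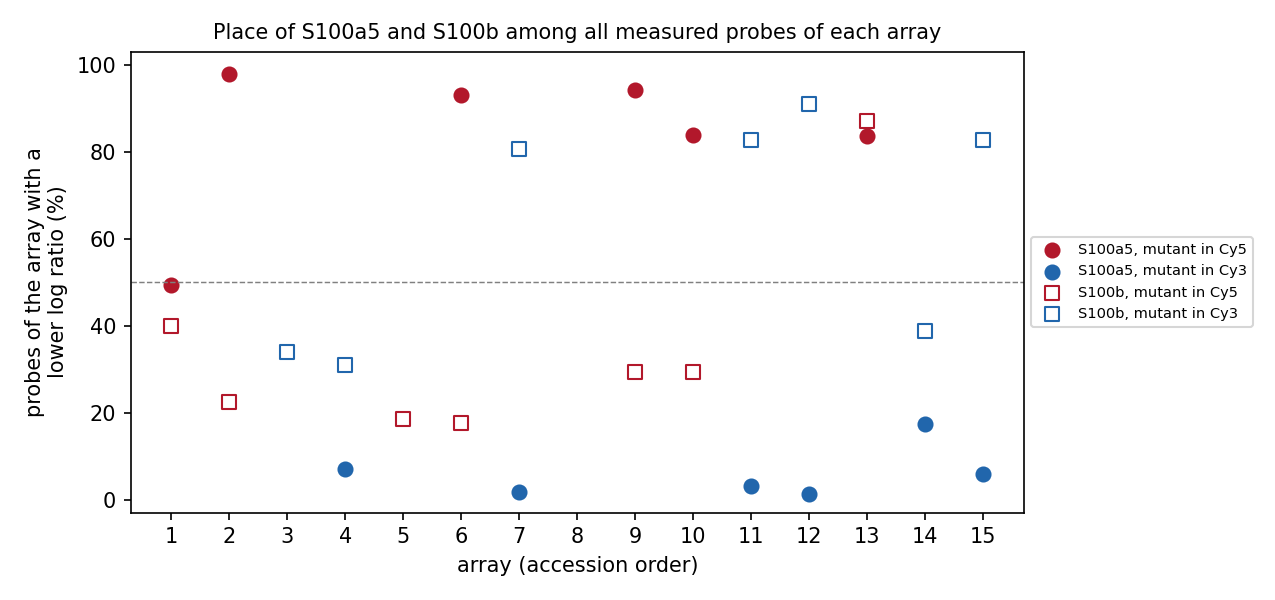
Share of the probes of each array with a log ratio below that of S100a5 (filled circles) or S100b (open squares), by array in accession order, in red on O377-Cy5 and in blue on O377-Cy3 arrays. S100a5 lay at 49.4% to 97.8% on O377-Cy5 arrays and at 1.34% to 17.5% on O377-Cy3 arrays; on the S100b squares the colours mix, with array 13 at 87%.

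The probes also differed in how far arrays of one orientation scattered. The residual SD of S100a5 within orientations was 0.68, larger than that of 89.3% of tested probes, whose median was 0.34. Its SD was 0.85 on O377-Cy3 arrays and 0.43 on O377-Cy5 arrays. The O377-Cy3 arrays include array 7 at -2.75, where the next lowest had -1.33. The residual SD of S100b was 0.26, larger than that of 25.5% of tested probes. S100a5 had no value on arrays 3, 5 and 8, and S100b none on array 8. Signs were then turned so that all arrays run one way, and values averaged over runs of arrays in accession order. S100a5 averaged 0.58 over the 3 values of arrays 1 to 4 and 1.64 over the 2 of arrays 5 to 8, which include array 7. It averaged 1.05 over the 4 of arrays 9 to 12 and 0.46 over the 3 of arrays 13 to 15. These run means share a side, from which nothing is read because this contrast chose the gene. S100b averaged -0.01, -0.29, -0.35 and 0.05 over the same runs and changed side. Both genes were farthest from 0 in the middle runs. The labels do not say what accession order stands for.

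S100a5 lies on chromosome 3 in the RefSeq annotation of GRCm38.p6, inside a row of S100 genes, and S100b lies outside it, on chromosome 10. Neither shares a chromosome with Crybb2, on chromosome 5. The genes directly beside S100a5 in annotation order are S100a4, which codes for a protein known for cell motility, and S100a6, or calcyclin. Both had tested probes and both lay near 0. The dye-switching component of S100a4 was 0.00 ± 0.10 (SE), with a 95% interval from -0.22 to 0.22, and that of S100a6 was 0.01 ± 0.11, with an interval from -0.23 to 0.24. The other 5 of the 10 nearest protein-coding genes that have a probe, S100a3, S100a8, S100a9, S100a14 and S100a16, had values on 0 to 3 arrays and were not tested.

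Around S100b, 3 of the 10 nearest protein-coding genes had a tested probe. Pcnt, which codes for the centrosome protein pericentrin, had one probe at -0.22 ± 0.17 (SE) in the dye-switching component and another at 0.13 ± 0.06, so its probes disagreed in sign. The transporter gene Slc5a4b stood at 0.07 ± 0.15 and Gm5134 at 0.00 ± 0.18. None of these neighbours passed the threshold, their limma adjusted p being 0.552 or more. Of all 8058 tested probes 0.645% passed, so nothing is read from that for so few probes.

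The S100 family had 15 probes for 14 genes on the array. Of these probes 9, for 8 genes, were tested, 3 had too few values, and 3 had none. The 3 without a value were S100a8 and S100a9, the subunits of calprotectin of neutrophils, and S100a16. A spot without a value cannot be told from a dim one, and log ratios give no level. S100a1 had values on 5 arrays, S100a14 on 3 and S100a3 on 2. In the dye-switching component, 1 of 9 tested S100 probes passed the threshold, S100a5 on the positive side, where 0.335% of all 8058 probes passed (0.645% in both directions). Nothing is read from that count, since the gene was picked for it. The choice itself lay near that threshold. S100a5 would have missed it without any 1 of arrays 2, 4, 6, 9, 10, 11, 12 and 13. It would have passed without any 1 of the other 7, and its component stayed between 0.72 and 0.96 throughout.

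Among the family members that were not picked, S100a11 stood farthest from 0. S100a11 is a partner of annexins in membrane repair. It ranged from -1.14 through a median of -0.22 to 0.09 on O377-Cy5 arrays, and from -0.11 through a median of 0.23 to 0.42 on O377-Cy3 arrays. Of the values, 5 of 7 were below 0 in the first orientation and 7 of 8 above 0 in the second, with overlap. The dye-switching component of S100a11 was -0.25 ± 0.08 (SE), with an unadjusted p of 0.0076 and a limma adjusted p of 0.282, so it did not pass. It lay on the side of S100b.

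S100g, the intestinal calcium buffer calbindin-D9k, stood at 0.12 ± 0.07 (SE) in the dye-switching component (adjusted p = 0.594), on the side of S100a5. Its log ratios were below 0 on 6 of 7 O377-Cy3 arrays with a value. On O377-Cy5 arrays 4 were above 0 and 3 below, and the orientations overlapped. S100a10, the light chain of the annexin A2 tetramer, has 2 probes, which stood at -0.05 ± 0.06 and -0.08 ± 0.06. S100a13, a copper-binding protein involved in the export of growth factors without a signal peptide, stood at -0.04 ± 0.08. The 9 probes thus fell on both sides, 4 positive and 5 negative, with a median of -0.04, beside a median of 0.01 over all tested probes. In the shared component the 9 ran from -0.26 for S100a5 to 0.09 for S100a6, with a median of -0.04 beside 0.00 over all probes, and 0 passed.

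**Figure D3:**
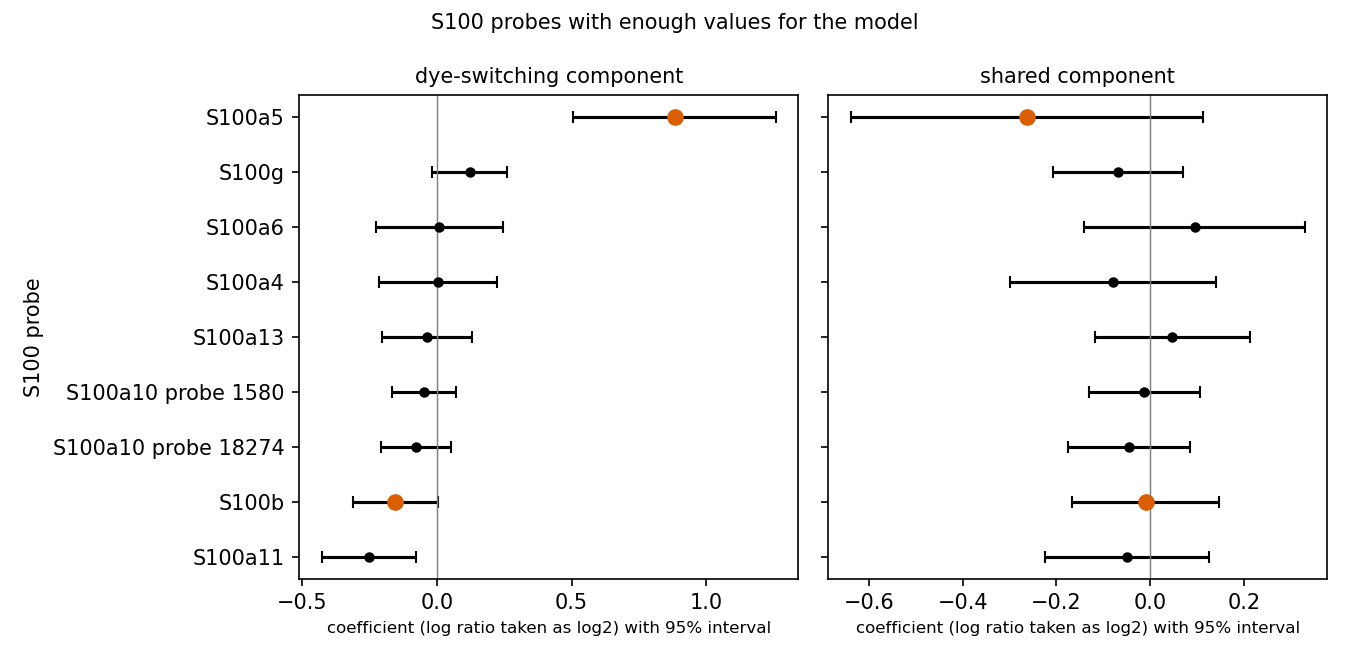
Dye-switching component (left) and shared component (right) of the 9 tested S100 probes, horizontal axes in log ratio taken as log2, with 95% intervals; S100a5 and S100b are in orange. S100a5 stood at 0.88 in the dye-switching component, where the other 8 lay between -0.25 and 0.12, and all 9 intervals of the shared component cover 0.

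The other EF-hand proteins, calcium sensors and buffers outside the S100 family, had 20 tested probes for 18 genes. Of these, 0 passed the threshold in either component, where 0.645% of all 8058 probes passed in the dye-switching and 0% in the shared one. At such shares a count of 0 says little about a list of this size, here or below. In the dye-switching component 5 were positive and 15 negative, with a median of -0.04 beside 0.01 over all tested probes. The one farthest from 0 was Rcn1, a calcium-binding protein of the endoplasmic reticulum, at -0.39 ± 0.12 (SE), limma adjusted p = 0.238. Efhd1, a mitochondrial calcium sensor, was next at -0.32 ± 0.17.

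Ager, the receptor gene named above, had values on 2 arrays and was not tested. Binding partners of S100 proteins had 13 tested probes for 10 genes, 7 on the positive and 6 on the negative side. Of these 0 passed, where 0.645% of all tested probes did. Their median dye-switching component was 0.03. Iqgap1, a scaffold of the cytoskeleton that S100 proteins can bind, stood at -0.47 ± 0.13 (SE), limma adjusted p = 0.18. Anxa2, the annexin that pairs with S100a10, stood at 0.28 ± 0.24, with a standard error near the size of the value.

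The cells that make S100b were poorly covered. Of 13 astrocyte markers 9 had a probe and 4 a tested one, and Slc1a2, Slc1a3 and Aldoc had a value on 1 array each. The 5 tested astrocyte probes had a median dye-switching component of -0.04, 1 positive and 4 negative. Of these 0 passed, where 0.645% of all tested probes did. Glul, the glutamine synthetase of astrocytes, stood at 0.46 ± 0.18 (SE) on one probe and at -0.01 ± 0.08 on the other. Ndrg2, another astrocyte gene, stood at -0.10 ± 0.08. The 3 tested probes of the oligodendrocyte lineage were all negative, with a median of -0.04 and 0 past the threshold: the myelin gene Mbp at -0.22 ± 0.09 (adjusted p = 0.419) and at -0.03 ± 0.08, and Olig1, a transcription factor of the lineage, also at -0.04 ± 0.08. The part of these cell types in the value of S100b was not tested.

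The cells known for S100a5 were covered less still. Of 14 markers of olfactory sensory neurons 4 had a probe. Omp, the olfactory marker protein, and Gng13, a G protein subunit of these cells, had a value on 1 array each, and the channel gene Cnga2 on 4. Only Kirrel2, an adhesion molecule of their axons, was tested, at 0.02 ± 0.11 (SE) in the dye-switching component. Of 8 olfactory bulb markers, Trh was the 1 tested, at -0.01 ± 0.06. The part of olfactory tissue in the value of S100a5 was not tested, since these values hold no more than 1 gene per list.

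Markers of the remaining cells gave few values. Of 10 pan-neuronal markers 6 were tested, each with values on 14 or 15 arrays. Thy1, a surface glycoprotein of neurons, was the 1 that passed, at -0.53 ± 0.11 (SE), limma adjusted p = 0.0276, on the negative side, where 0.31% of all probes passed, while the list median was 0.02 and Map2 stood at 0.09 ± 0.11. In the endothelial list Flt1 stood at -0.14 ± 0.09 on one probe and 0.04 ± 0.10 on the other, and Slco1c1 at 0.08 ± 0.07. The microglial gene C1qb stood at -0.05 ± 0.07 and Lcn2, of the neutrophil list, at 0.07 ± 0.06. Choroid plexus genes had 0 tested probes.

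**Figure D4:**
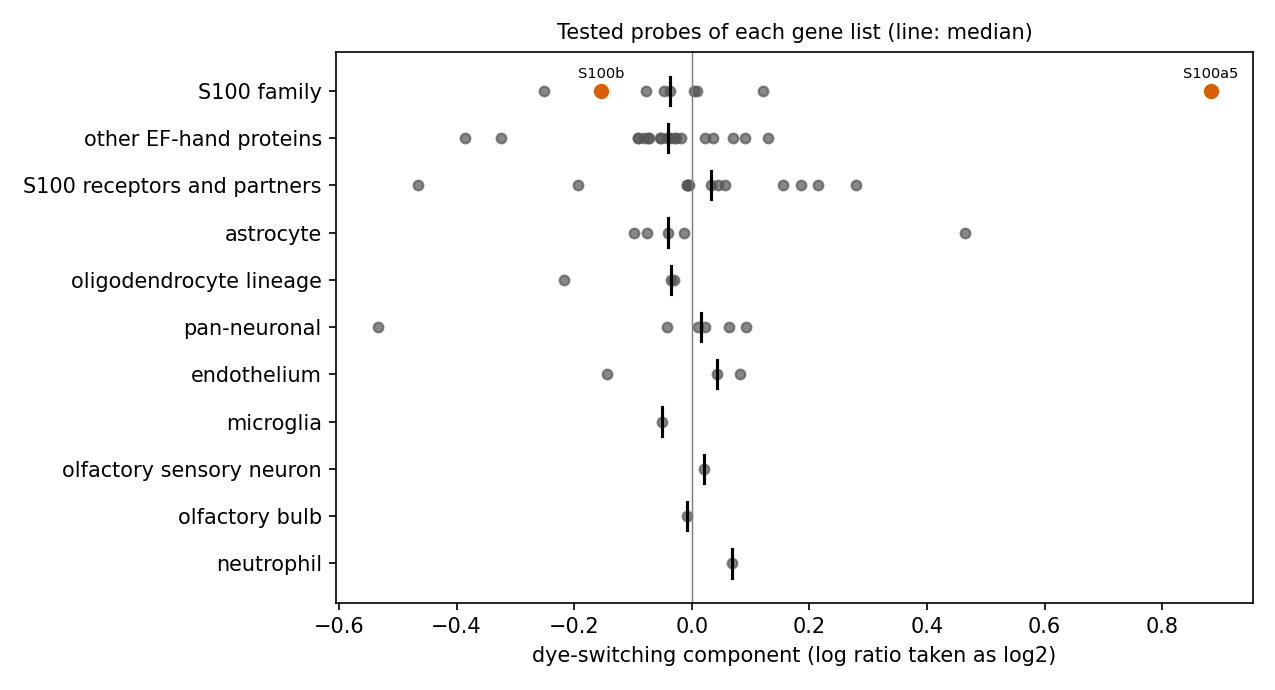
Dye-switching component (horizontal axis, log ratio taken as log2) of every tested probe of each gene list, with the list median as a line; S100a5 and S100b are in orange. S100a5, at 0.88, lies right of all other probes shown, of which the next is a Glul probe at 0.46, and list medians lie between -0.05 and 0.07.

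Finally, the probes whose log ratios across arrays were most like those of each gene were listed, as a description, over probes with 1 gene symbol and at least 12 arrays in common. All such correlations share the dye orientation of the arrays, and genes that switch with the dye will correlate through it. The probes named are the most extreme of many, so nothing is read from the size of their correlations. Among 2796 probes, S100a5 was most like Ivd, an enzyme of leucine breakdown (Pearson r = 0.928, Spearman rho = 0.867, n = 12 arrays). Mettl1, a transfer RNA methyltransferase (r = 0.873), the smooth muscle actin gene Acta2 (r = 0.819) and the fibronectin gene Fn1 (r = 0.815) followed. The most opposite were the tetraspanin gene Tspan17 (r = -0.833) and Scg5, the chaperone of a prohormone convertase (r = -0.83).

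With each orientation's mean subtracted, these genes were replaced. S100a5 was then most like 5830433I10Rik (r = 0.866), Sh3glb2, of the endophilin family (r = 0.858), and Gramd1a, a sterol transfer protein (r = 0.853), with lower rank correlations of 0.664, 0.762 and 0.692. Array 7, where S100a5 had -2.75 and the next lowest O377-Cy3 array -1.33, was included. Its part in these values was not tested.

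Among 3943 probes, S100b was most like Prps1, which makes the ribose precursor of nucleotides (r = 0.868, rho = 0.868, n = 14 arrays). Rflnb, a filamin-binding protein (r = 0.863), 4933427D14Rik (r = 0.852) and Smim13 (r = 0.815) came next. The most opposite were Serpina12, a serpin adipokine (r = -0.795), and the kinase gene Pbk (r = -0.776). With the orientation means subtracted, the iron transporter gene Slc11a2 led (r = 0.821), and Prps1 (r = 0.82) and 4933427D14Rik (r = 0.809) were still among the 3 closest.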

How the data were processed

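For each probe on each 2-colour array the authors deposited a single log ratio, here taken as log2. Scanner software, normalization, spot filter, log base and direction are not given in the sources used here. The base was taken as 2 from the range of values, the largest being 12.3 in size. The array medians (-0.00618 to 0.0165) show that arrays had been centred. Values were used as deposited. Arrays are numbered 1 to 15 in accession order. In that order the dye of O377 RNA ran Cy5, Cy5, Cy3, Cy3 repeatedly, with the last run short of a Cy5 array. The labels state no pairing of arrays. The number of arrays limits only the precision over arrays. Precision on genotype is limited by the number of brains and by the single wild-type pool.

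Probes with values on at least 4 arrays of each orientation were fitted with limma 3.58.1 (R 4.3.3; lmFit and eBayes, with a term for dye orientation) across all probes, and p-values were adjusted by Benjamini-Hochberg over all 8058 with a threshold of 0.05. The fit was tested on simulated data. Symbols came from the platform annotation (11723 probes with 1 symbol, 806 with several, 7676 with none), updated through gene identifiers. Named genes were every tested S100 gene, of each other list the members past the threshold and the 2 largest in size, and, by correlation, the 4 most and 2 least alike, and 3 after subtraction of orientation means. Other genes were named to state coverage or neighbours after their values were seen. The genes, lists and tests were chosen with earlier results of these data known. Figures were drawn with matplotlib 3.10.9.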

Additional observations from a re-analysis of the deposited data

Results flagged for a closer look

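Of 18 sets of values checked, those of the 9 tested S100 probes in each dye orientation, 1 held an array far from the others. On array 13, with O377 RNA in Cy5, S100b had a log ratio of 0.39, and the next highest among arrays of that orientation was -0.10, a gap of 0.667 of the whole range over 7 arrays. Chance gives about 1 such set in 20, so a count of 1 in 18 is near it.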

How the results depend on the processing

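Under 13 alternatives besides leaving out single arrays, the dye-switching component of S100a5 ran from 0.75 to 0.96. That of S100b ran from -0.19 to -0.13, and both kept their side. Nothing is read from the side of S100a5, or from how often it passed, since this contrast chose the gene. In this component S100a5 passed the threshold under 11 of the 13 and missed it under 2. It missed with scaled arrays (limma adjusted p = 0.0826) and without arrays 9 and 10 together (limma adjusted p = 0.132). Arrays 9 and 10 had the most widely spread log ratios, with interquartile ranges of 0.73 and 0.89. Array 13 came next at 0.58. One of the 13, leaving out arrays 7 and 13 together, was chosen after the data had been seen. With single arrays left out, S100a5 ran from 0.72 (without array 7) to 0.96 and S100b from -0.20 (without array 13) to -0.13. In the shared component neither passed under any alternative run (adjusted p from 0.441 to 0.868 for S100a5 and from 0.791 to 0.993 for S100b). The shared component of S100a5 ran from -0.40 to -0.08, and from -0.34 (without array 14) to -0.10 (without array 7) with single arrays left out. That of S100b changed sign near 0, to 0.0041 with scaled arrays and 0.0149 without arrays 9 and 10, and ran from -0.0556 to 0.0151 with single arrays left out. The count over all probes in the dye-switching component, 52, became 81 with array weights and 204 with robust regression, and 36 to 49 with single arrays left out. The shared count of 0 became 107 with robust regression. What causes them was not tested. Counts per gene list kept their values when 3 values per orientation sufficed. The labels give arrays no shared replicate numbers to pair them by. With runs of 4 arrays in accession order as a random block, 1 of the 13 alternatives, the dye-switching component was 0.88 for S100a5 and -0.15 for S100b.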
